A study of Homo sapiens with 4 samples.

Results

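Matrix metalloproteinases (MMPs), the urokinase-type plasminogen activator and the tissue inhibitors of metalloproteinases (TIMPs) were followed in OVCAR3 cells treated with etoposide or with its vehicle, DMSO. The set was chosen by gene name, with earlier results of these data known, and holds 9 of the 60605 genes in the deposited tables. The proteases are the secreted MMP1, MMP7 and MMP10, the membrane-type MMP14 and MMP15, and the serine protease gene PLAU. The inhibitors are TIMP1, TIMP2 and TIMP3. OVCAR3 is a human line derived from a high-grade serous carcinoma of the ovary, and etoposide is a topoisomerase II poison that leaves double-strand breaks in DNA. The libraries comprised 2 of cells given 1.7 µM etoposide for 24 h and 2 of cells given DMSO, and the labels call the libraries of each group biological replicates. Before that, nocodazole, which halts cells in mitosis, had been given to both groups for 16 h at 100 ng/ml and washed out, and the cells had spent 3 h in fresh medium. The comparison asks how the RNA of enzymes that cut the extracellular matrix, and of their inhibitors, stood after induced DNA damage in this 1 cell line.

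MMPs are zinc-dependent endopeptidases that are made as inactive proenzymes and together can cut most components of the extracellular matrix. They are opened by other proteases, among them plasmin, which urokinase releases from plasminogen, and they are blocked by TIMPs, which bind the active site. In ovarian carcinoma these enzymes are known for their part in the spread of tumour cells over the peritoneum. RNA levels do not measure proenzyme activation or protease activity.

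The genes lie at these places in GRCh38. MMP7 (chr11:102520508-102530750), MMP10 (chr11:102770502-102780628) and MMP1 (chr11:102789401-102798160) are on the minus strand of chromosome 11 and belong to a cluster of 9 MMP genes over 435 kb. MMP14 is at chr14:22836560-22849041, MMP15 at chr16:58025754-58046901, PLAU at chr10:73909177-73917496, TIMP1 at chrX:47582408-47586789 and TIMP3 at chr22:32801705-32863041, all on the plus strand. TIMP2 is at chr17:78852977-78925387 on the minus strand.

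Promoters from RefSeq (GRCh38.p14, 250 bases before to 50 after the start) were at hand for 7 of the 9 genes. Those of MMP1 and TIMP2 were missing. In the others, 4 motifs were counted on both strands. Shown are the stretches just upstream of the start of 4 metalloproteinase genes, the secreted MMP7 and MMP10 and the membrane-type MMP14 and MMP15. Capitals mark TGAGTCA (the AP-1 motif), TATAAA (the TATA box) and GGGCGG (the GC box, which reads CCGCCC where it lies on the opposite strand), and positions count from the start.
MMP7 (chr11:102530758-102530857, minus strand, positions −110 to −11): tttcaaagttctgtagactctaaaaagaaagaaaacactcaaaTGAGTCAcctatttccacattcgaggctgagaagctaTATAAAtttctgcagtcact
MMP10 (chr11:102780639-102780738, minus strand, positions −110 to −11): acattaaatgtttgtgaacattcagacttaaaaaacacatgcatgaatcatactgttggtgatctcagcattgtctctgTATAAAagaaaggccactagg
MMP14 (chr14:22836475-22836554, plus strand, positions −110 to −31): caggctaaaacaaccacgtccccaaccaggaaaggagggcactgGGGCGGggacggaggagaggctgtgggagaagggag
MMP15 (chr16:58025644-58025743, plus strand, positions −110 to −11): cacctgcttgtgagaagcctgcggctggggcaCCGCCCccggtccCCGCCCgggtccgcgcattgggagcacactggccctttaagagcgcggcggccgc
The MMP7 promoter held TGAGTCA at position −67 and TATAAA at −30, and the MMP10 promoter held TATAAA at −31. Of 35116 promoters of the same length, 4.95% held TGAGTCA and 11.5% held TATAAA. The GC box stood 5 times in MMP15 and TIMP3, 3 times in PLAU, 2 times in TIMP1 and 1 time in MMP14, against 45% of all promoters with at least 1. The fourth motif, AGGAAG (the PEA3 motif), stood 2 times in MMP7 and 1 time each in TIMP1 and PLAU, against 33.6% of all promoters. The GC content of the window was 35.7% in MMP7 and 36.3% in MMP10, against 75.3% in MMP15, 72.7% in TIMP3, 70.0% in PLAU, 65.0% in TIMP1 and 55.0% in MMP14. A match is a match of letters only.

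Levels are FPKM, the fragments assigned to a transcript divided by its length and by the mapped total, as deposited per transcript and here summed per gene. The mapped bases behind the values equal 47687126 and 58513480 read pairs of 200 bases in the etoposide libraries and 64473397 and 66500749 in the DMSO libraries. The difference between the DMSO libraries followed transcript length (Spearman's rho 0.307 across 22185 genes) and GC content (rho −0.337), that between the etoposide libraries did so far less (0.0153 and −0.017), and the difference of etoposide minus DMSO lay between them (0.191 and −0.286). Genes share libraries and are not replicates, so these are descriptions. The 12 epithelial and serous carcinoma markers were all found, at a sum of 2201 and 2284 FPKM with etoposide and 3191 and 2825 with DMSO. Their log2 fold changes were positive in 2 and negative in 10, with a median of −0.28. At an unadjusted p under 0.05, against 7.06% higher and 4.85% lower among all genes tested, 0 of the 12 were higher and 8 lower with etoposide. Of these, the simple-epithelial keratins KRT18 (611 and 639 FPKM with etoposide, 944 and 835 with DMSO) and KRT19 (66.7 and 70.5 with etoposide, 102 and 91.1 with DMSO) had the smallest p. Fibroblast markers summed to 0.962 and 0.991 FPKM with etoposide and 0.851 and 1.03 with DMSO (3 of 7 tested). The decorin gene DCN was at no more than 0.0176 FPKM, while lumican gene LUM had 0.359 and 0.362 with etoposide and 0.469 and 0.404 with DMSO. Leukocyte markers summed to 1.19 and 1.43 with etoposide and 1.73 and 1.44 with DMSO (3 of 8 tested). CD163 was at 0, while CD14, a monocyte marker, had 0.613 and 0.612 FPKM with etoposide and 1.02 and 0.810 with DMSO, lower at an unadjusted p under 0.05. Endothelial markers summed to 5.32 and 5.28 FPKM with etoposide and 4.60 and 5.78 with DMSO (3 of 5 tested), mostly from the receptor gene KDR (4.14 and 4.20 with etoposide, 3.77 and 5.01 with DMSO), while PECAM1 stood at no more than 0.0876 and the von Willebrand factor gene VWF at 0.915 and 0.680 with etoposide and 0.567 and 0.524 with DMSO. The part of these markers in the results below was not tested. In bulk RNA, fewer cells with a transcript and less of it per cell cannot be told apart.

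As a sum, the inhibitors were the abundant side of the set. In etoposide cells TIMP2 stood highest, followed by TIMP3, TIMP1, MMP15, PLAU, MMP10, MMP14, MMP1 and MMP7, and no neighbours in that order overlapped between the 2 libraries. In DMSO cells TIMP2 was again highest, but MMP15 (12.6 and 13.7 FPKM) and TIMP3 (12.6 and 13.8) could not be ordered, nor could MMP14 (0.747 and 0.804) and MMP1 (0.673 and 0.830). There the protease gene MMP15 lay above the inhibitor gene TIMP1 (11.3 and 11.9) in both libraries. Mean TIMP2 RNA exceeded that of 93.4% of the tested genes and mean MMP7 RNA that of 15%.

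Among the secreted proteases, both the collagenase and the stromelysin of the set had lower RNA in etoposide cells. MMP1, the interstitial collagenase that starts the cutting of fibrillar collagen, had 0.297 and 0.320 FPKM with etoposide and 0.673 and 0.830 FPKM with DMSO. Both etoposide libraries lay below both DMSO libraries, at 0.411 times the DMSO mean. The log2 fold change (etoposide against DMSO, on FPKM + 0.1) was −1.05 with an SE of 0.20 and a limma adjusted p of 0.271. The level is low, at about 28 and 37 read pairs with etoposide and 85 and 109 with DMSO, and the fold change depends on the pseudocount, being −0.42 with 1 and −1.25 with 0.01.

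MMP10, or stromelysin 2, which cuts non-fibrillar matrix and activates other MMPs, had 1.60 and 1.57 FPKM with etoposide and 2.58 and 2.87 with DMSO. The etoposide libraries were nearly equal and the groups did not overlap. The log2 fold change was −0.74 (SE 0.13, limma adjusted p 0.267), from about 134 and 162 read pairs with etoposide and 293 and 335 with DMSO.

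MMP7, or matrilysin, the smallest enzyme of the family, had 0.168 and 0.229 FPKM with etoposide and 0.286 and 0.175 with DMSO. The groups overlapped, with the lowest and the second lowest value 1 in each group. At about 9 and 15 read pairs with etoposide and 21 and 14 with DMSO, a difference was not detectable at this depth (log2 fold change −0.13, SE 0.29, limma adjusted p 0.867).

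The membrane-type enzymes stood on opposite sides of DMSO. MMP14, the membrane protease MT1-MMP that activates pro-MMP2 on the cell surface, had 1.14 and 1.12 FPKM with etoposide and 0.804 and 0.747 with DMSO. Both etoposide libraries lay above both DMSO libraries, with a log2 fold change of 0.49 (SE 0.15, limma adjusted p 0.372) that became 0.26 at a pseudocount of 1. MMP15, the related protease MT2-MMP, was the most abundant protease of the set, at 9.92 and 9.82 FPKM with etoposide and 13.7 and 12.6 with DMSO. Both etoposide libraries were lower, with a log2 fold change of −0.41 (SE 0.09, limma adjusted p 0.298). MMP15 transcript is rich in G and C (65.5%), and its fold change was −0.32 after a correction for transcript length and GC content.

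PLAU, which encodes urokinase, had 4.29 and 4.83 FPKM with etoposide and 5.62 and 5.45 with DMSO. The groups did not overlap, and the etoposide libraries differed more between themselves than the DMSO libraries did. The log2 fold change was −0.28 (SE 0.11, limma adjusted p 0.411). The authors' transcript estimates placed most of PLAU in ENST00000372764 (4.24 and 4.57 FPKM with etoposide, 5.16 and 4.27 with DMSO) and less in ENST00000446342 (0.0307 and 0.260 with etoposide, 0.405 and 1.18 with DMSO). The leading transcript overlapped between the groups and the minor one was lower in both etoposide libraries.

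The 3 TIMP genes differed among themselves. TIMP2, which inhibits MMPs and also serves MMP14 as an adaptor for pro-MMP2, had 47.1 and 44.2 FPKM with etoposide and 34.9 and 36.5 with DMSO. Both etoposide libraries were higher, with a log2 fold change of 0.35 (SE 0.08, limma adjusted p 0.298). TIMP3, the inhibitor that binds to the matrix and also blocks ADAM proteases, had 15.9 and 14.5 FPKM with etoposide and 12.6 and 13.8 with DMSO. The groups did not overlap, but the gap between them was smaller than the spread within either (log2 fold change 0.20, SE 0.10, limma adjusted p 0.449). TIMP1, the inhibitor that binds pro-MMP9, had 11.2 and 11.7 FPKM with etoposide and 11.9 and 11.3 with DMSO. These values overlapped, and the log2 fold change of −0.014 (SE 0.09, limma adjusted p 0.959) changed sign with the scaling, being 0.053 on TPM.

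**Figure D1:**
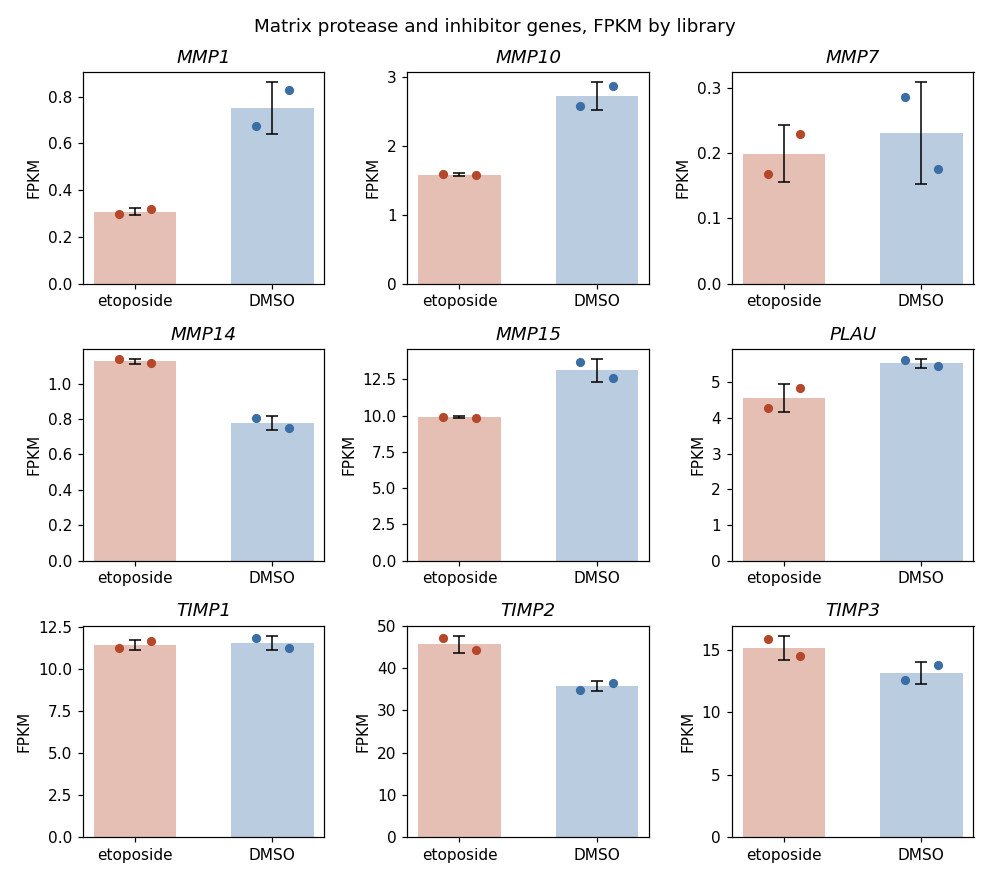
FPKM of the 9 genes in each library, with etoposide left of DMSO; points are libraries, bars the group means and error bars the SD of 2 libraries, each panel on its own axis from 0. MMP1, MMP10, MMP15 and PLAU lie lower and MMP14, TIMP2 and TIMP3 higher in both etoposide libraries, while MMP7 and TIMP1 overlap.

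By groups that do not overlap, 3 of the 9 genes were higher with etoposide and 4 lower, against 28.9% and 19% of the 22185 genes tested (47.9% in either direction). At an unadjusted p under 0.05 there were 2 higher (MMP14 and TIMP2) and 4 lower (MMP1, MMP10, MMP15 and PLAU), against 7.06% and 4.85% of all genes (11.9% in either direction). At least 1.5-fold on the log2 scale, 0 were higher and 2 were lower (MMP1 and MMP10), against 3.78% and 3.06%. After adjustment over all genes, limma called 0 of the 9 and 0 genes in all (0% in each direction, smallest adjusted p 0.169). On estimated fragments, limma's voom likewise called 0, with 2 genes of the set higher and 4 lower unadjusted. The unadjusted counts were 3 higher and 3 lower on TPM, and 3 higher and 4 lower after the correction for transcript length and GC content. The median log2 fold change was −0.13 over the 9 genes and 0.036 over all genes tested. Because the set was chosen with earlier results of these data known, these counts and shares are descriptions and carry no test.

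The genes called changed with the library left out. Such a fit leaves a lone library in a group, with no spread of its own, so only fold changes are given. Without DMSO replicate 2, the log2 fold change was 0.38 for TIMP2, −0.67 for MMP10 and −0.47 for MMP15. With all 4 libraries these values were 0.35, −0.74 and −0.41. With 2 libraries against 2, the smallest p that exact permutation allows for 1 gene, two-sided, is 0.33.

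**Figure D2:**
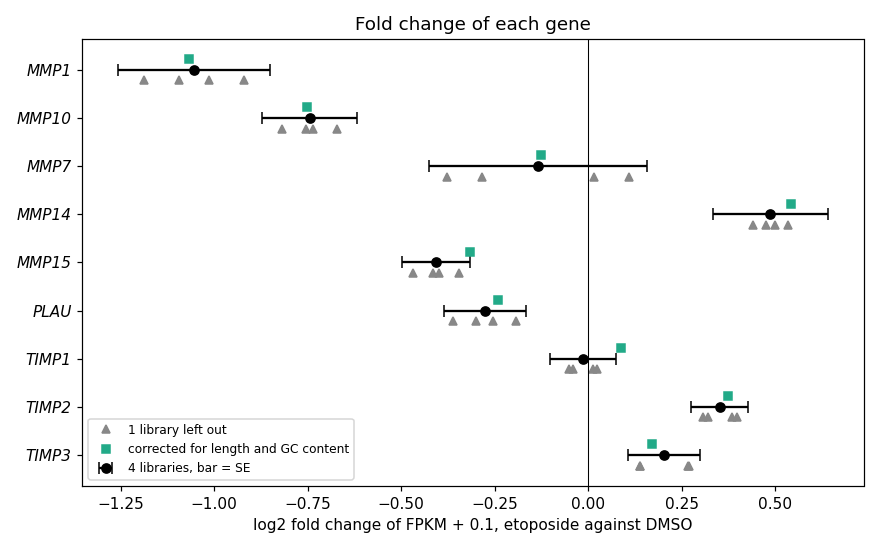
Log2 fold change of each gene, etoposide against DMSO, on FPKM + 0.1; black points with bars are the value and SE from 4 libraries, triangles the value with 1 library left out, and squares the value corrected for transcript length and GC content. MMP7 and TIMP1 have triangles on both sides of 0, and the other 7 genes keep their side.

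Coverage was also read exon by exon along the leading transcript of each gene. It was brought to the FPKM scale of each library and summed over the transcripts that share the exon. The gene values come from the same coverage, so the exons are no independent check on them. The share of such exons over all genes was not computed. MMP10 was lower in both etoposide libraries in 10 of 10 exons, MMP15 in 10 of 10 and MMP1 in 9 of 10. For MMP1 the last exon of 603 bases, which ends the transcript, had the lowest ratio, 0.163, with a scaled coverage of 0.0692 and 0.139 with etoposide and 0.523 and 0.755 with DMSO. PLAU was lower in 8 of 11 exons, with ratios of the group means between 0.605 and 0.973. TIMP2 was higher in 5 of 5 exons (ratios 1.17 to 1.27) and TIMP3 in 3 of 5 (0.968 to 1.25). MMP14 was higher in 4 of 10 exons and overlapped in 6 (0.943 to 1.84). In the last MMP14 exon of 2051 bases, most of its length, scaled coverage was 1.09 and 0.940 with etoposide and 0.684 and 0.586 with DMSO. TIMP1 had 1 exon higher, 1 lower and 4 overlapping, and the 6 MMP7 exons all overlapped. Exons of 1 gene share its libraries and fragments, so these counts describe where along the gene a difference lay and carry no test.

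**Figure D3:**
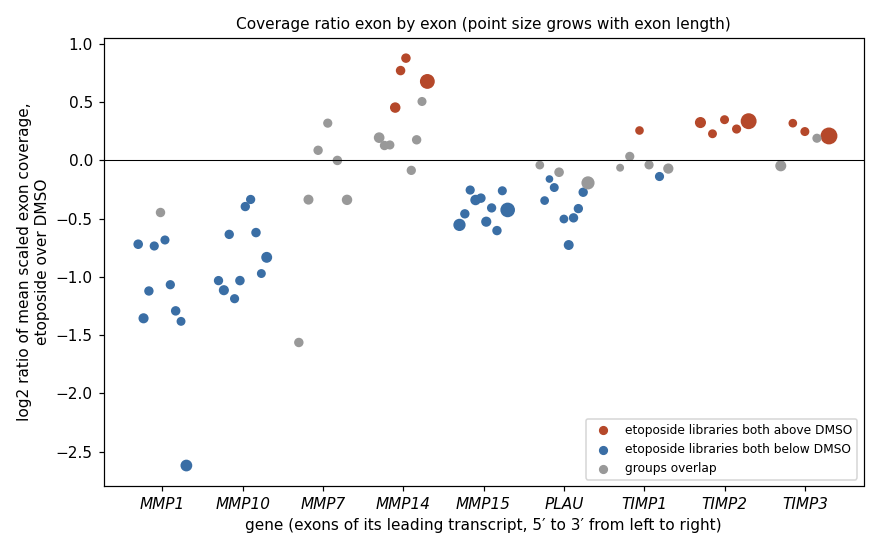
Log2 ratio of mean scaled coverage, etoposide over DMSO, for each exon of the leading transcript of the 9 genes. Exons run 5′ to 3′ from left to right within a gene, and point size grows with exon length. Colour gives whether both etoposide libraries lay above both DMSO libraries, both lay below, or the groups overlapped. The MMP10 and MMP15 exons all lie below 0 and the TIMP2 exons all above, and the MMP1 point at the bottom is its last exon.

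TIMP2 showed a difference between transcripts in the authors' estimates. The full-length transcript ENST00000262768 had 36.6 and 36.7 FPKM with etoposide and 34.4 and 36.3 with DMSO. ENST00000586057, which starts inside the first intron and lacks the first exon, had 10.2 and 7.29 FPKM with etoposide and 0.138 and 0.0490 with DMSO, which is 21.6% and 16.5% of TIMP2 with etoposide and 0.396% and 0.134% with DMSO. Most of the gap in the gene sum thus lay in the second transcript. The first exon, which of these 2 transcripts belongs only to the full-length one, nevertheless had a scaled coverage of 25.5 and 23.7 with etoposide and 18.5 and 20.8 with DMSO, a ratio of 1.25 that is within the range of the other 4 exons. The split between transcripts is an estimate by StringTie from shared exons. The gene sum rests on it in part, since each FPKM is divided by the length of its own transcript. On estimated fragments with voom the log2 fold change of TIMP2 was 0.34, against 0.35 on summed FPKM.

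**Figure D4:**
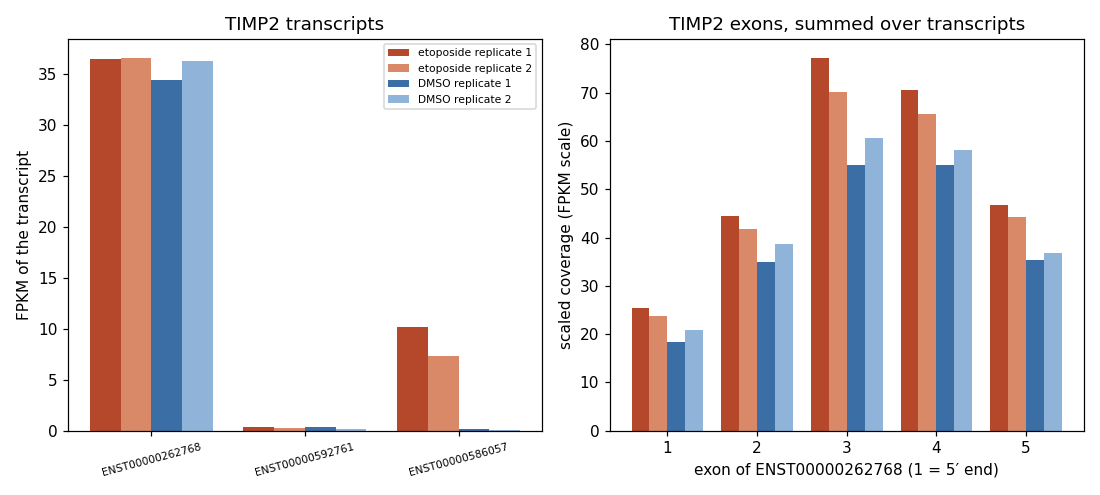
TIMP2 in each library, etoposide left of DMSO: FPKM of the transcripts above 0.1 FPKM in any library (left), and scaled coverage of the 5 exons of ENST00000262768 summed over transcripts (right). ENST00000586057 stands at 10.2 and 7.29 FPKM with etoposide and under 0.2 with DMSO, while all 5 exons, the first included, are higher in both etoposide libraries.

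Summed over the set, proteases were lower and inhibitors higher in etoposide cells. The 6 protease genes came to 17.4 and 17.9 FPKM with etoposide and 23.6 and 22.6 with DMSO, of which MMP15 made 57.0% and 54.9% with etoposide and 57.9% and 55.5% with DMSO. The 3 TIMP genes came to 74.2 and 70.4 FPKM with etoposide and 59.4 and 61.6 with DMSO, of which TIMP2 made 63.5% and 62.8% with etoposide and 58.8% and 59.3% with DMSO. The ratio of inhibitor to protease RNA was 4.26 and 3.93 with etoposide and 2.51 and 2.72 with DMSO. The protease sum includes PLAU (4.29 and 4.83 FPKM with etoposide, 5.62 and 5.45 with DMSO), a serine protease and not a metalloproteinase. The ratio therefore does not set TIMPs against metalloproteinases alone. Neither the sums nor the ratio overlapped between the groups, and no p was computed for them. The ratio of TIMP2 to MMP14, which form a complex on the cell surface, was 41.4 and 39.6 with etoposide and 43.4 and 48.9 with DMSO.

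On chromosome 11, MMP1 and MMP10 are neighbours of MMP3, or stromelysin 1, named here for its position and after its values were seen. It had 0.153 and 0.0937 FPKM with etoposide and 0.334 and 0.222 with DMSO, so that both etoposide libraries were lower (log2 fold change −0.76, SE 0.30, limma adjusted p 0.411, and −0.19 at a pseudocount of 1 or −1.12 at 0.01). Of the 9 MMP genes in the cluster, 4 reached the level for testing and 3 (MMP8, MMP20 and MMP27) were listed at 0 in all libraries. MMP10, MMP1 and MMP3 were lower in both etoposide libraries, as were 19% of all genes tested, and MMP7 overlapped between the groups. So did MMP12 and MMP13, beyond MMP3, which were too low to test (at most 0.0798 and 0.0155 FPKM).

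Transcripts of other genes cross these loci, and no strand option was used in the quantification, so that their reads cannot be told apart where exons overlap. The antisense gene C10orf55 shares 915 exonic bases with PLAU and stood at 0.113 and 0.0937 FPKM with etoposide and 0.0977 and 0.0660 with DMSO. WTAPP1, antisense to MMP1, shares 223 exonic bases with it. CEP295NL, on the strand of TIMP2, shares 198 with TIMP2. A gene without a name, antisense to TIMP2, shares 367 with it and stood at no more than 0.0219 FPKM. SYN1 and SYN3, antisense to TIMP1 and TIMP3, share 0 exonic bases with them. All of these genes were under 0.4 FPKM in every library.

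Of 18 other MMP genes, 9 were tested and 4 were at 0. At an unadjusted p under 0.05, 0 were higher and 1 lower (MMP3) with etoposide, against 7.06% and 4.85% of all genes. The median log2 fold change was −0.20. MMP2, or gelatinase A, whose proenzyme MMP14 activates, had 1.22 and 1.26 FPKM with etoposide and 1.33 and 1.40 with DMSO (log2 fold change −0.13, limma adjusted p 0.711). Among the other inhibitors only RECK, a membrane-anchored MMP inhibitor, was tested, with 3.32 and 3.13 FPKM with etoposide and 3.06 and 3.14 with DMSO, which overlapped.

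Around PLAU, the plasminogen activator system held 9 other genes, of which 6 were tested. At an unadjusted p under 0.05, 2 were higher (PLAT and SERPINE2) and 0 lower, against 7.06% and 4.85% of all genes. The receptor gene PLAUR, which holds urokinase at the cell surface, had 4.37 and 4.36 FPKM with etoposide and 5.04 and 5.03 with DMSO (log2 fold change −0.20, limma adjusted p 0.452). The other activator, tissue-type PLAT, had 4.41 and 4.80 FPKM with etoposide and 3.74 and 3.86 with DMSO (0.27, adjusted p 0.412). Neither gene overlapped between the groups, and the PLAUR value was −0.12 after the length and GC correction. The inhibitor gene SERPINE2, or protease nexin 1, had 3.82 and 3.79 FPKM with etoposide and 2.99 and 2.84 with DMSO (0.37, limma adjusted p 0.346). SERPINA5, the protein C inhibitor, had 0.727 and 1.06 FPKM with etoposide and 1.17 and 1.25 with DMSO (−0.42, limma adjusted p 0.454), and its value was −0.18 without etoposide replicate 1 and −0.67 without etoposide replicate 2. The plasminogen receptor gene PLGRKT had 18.3 and 18.7 with etoposide and 21.0 and 20.5 with DMSO. The plasminogen gene PLG was at 0 in all libraries.

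Enzymes that open proenzymes and genes of the matrix that is cut were counted in the same way. Of 5 convertases and activators, 0 were higher and 1 lower at an unadjusted p under 0.05, against 7.06% and 4.85% of all genes. The lower gene was FURIN, the convertase that activates pro-MMP14, with 3.94 and 3.71 FPKM with etoposide and 4.52 and 4.66 with DMSO. BSG, the MMP inducer also called EMMPRIN, had 145 and 145 FPKM with etoposide and 173 and 151 with DMSO (log2 fold change −0.16, or −0.060 without DMSO replicate 1 and −0.26 without DMSO replicate 2). Of 18 matrix genes tested, 2 were higher and 2 lower, against 11.9% of all genes in either direction. LAMA5, a laminin chain of basement membranes, had 51.4 and 50.0 FPKM with etoposide and 71.0 and 67.0 with DMSO (log2 fold change −0.44, limma adjusted p 0.267), and COL1A1, a chain of the collagen that MMP1 and MMP14 cut, had 6.11 and 5.79 with etoposide and 4.36 and 4.42 with DMSO (0.43, adjusted p 0.302).

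Factors known to bind MMP and PLAU promoters were also set beside them. Of 9 AP-1 genes, 1 was higher and 1 lower at an unadjusted p under 0.05, against 7.06% and 4.85% of all genes. FOS had 72.9 and 90.9 FPKM with etoposide and 108 and 108 with DMSO (log2 fold change −0.41, limma adjusted p 0.342), and ATF3 had 5.58 and 6.57 with etoposide and 4.48 and 5.14 with DMSO (0.33, adjusted p 0.411). The FOS value was −0.25 without etoposide replicate 1 and the ATF3 value 0.21 without etoposide replicate 2. Of 5 ETS factors, 0 were higher and 1 lower, against the same shares of all genes. ETV4, also called PEA3, had 4.16 and 4.27 FPKM with etoposide and 5.49 and 5.29 with DMSO (−0.35, limma adjusted p 0.342), while ETS2 had 15.1 and 15.9 with etoposide and 13.97 and 14.2 with DMSO. A link between these factors and the proteases was not tested.

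**Figure D5:**
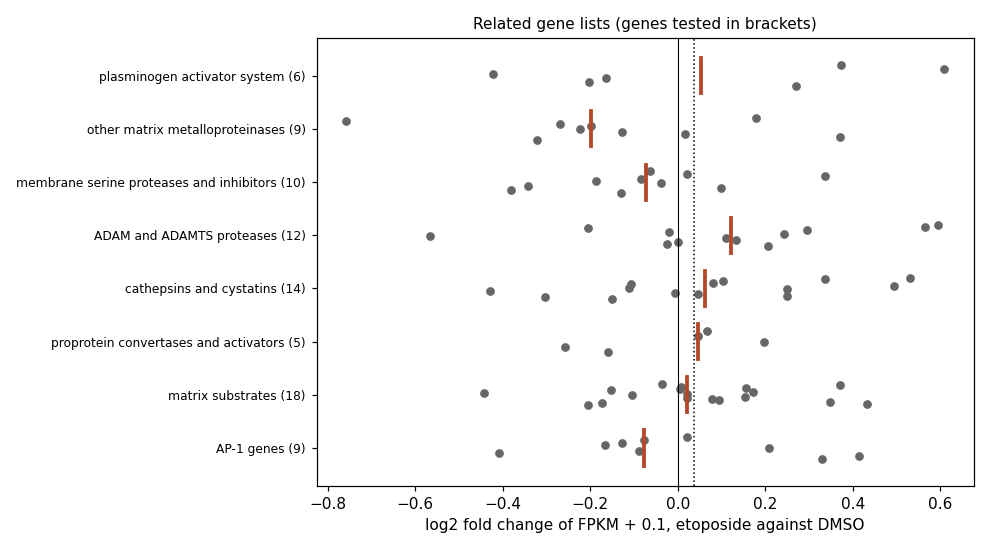
Log2 fold change, etoposide against DMSO, of the tested genes in 8 lists related to the proteases, with the median of each list as a red bar and the median of all genes tested (0.036) as a dotted line. The medians lie between −0.20 (other matrix metalloproteinases) and 0.12 (ADAM and ADAMTS proteases), and no gene shown passed an adjusted p of 0.05.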

How the data were processed

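RNA of 4 libraries was sequenced as pairs of 100 bases from a stranded mRNA kit. The submitters' processing notes name FastQC, HISAT2, SAMtools, StringTie 2.1.7, DESeq2 and the build GRCh38. The deposited values are, per annotated transcript, a coverage per base, an FPKM and a TPM that the authors obtained with StringTie, with no strand option and no counts, so limma replaced the authors' count test. FPKM were summed per gene. The 22185 genes averaging 0.1 FPKM or more were fitted with limma 3.58.1 in R 4.3.3 after log2 transformation of FPKM + 0.1, with the group as the only term, variance moderation with trend and robust fitting, and two-sided Benjamini-Hochberg adjustment. Fold changes on this scale understate those of low genes. Read pairs were estimated as coverage times length over 200 bases. They limit the precision of genes under 1 FPKM. Tables were written with Python 3.11.15 and pandas 2.3.3, and plots with matplotlib 3.10.9.

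The text names all 9 genes, up to 2 genes of each other list with the smallest p among those with a mean of at least 1 FPKM, every other metalloproteinase, inhibitor and plasminogen system gene at that level, and overlapping genes. MMP3, MMP12, MMP13, DCN, LUM, CD14, CD163, PECAM1, VWF and genes at 0 are named beside them, chosen after their values were seen. Members and lists were chosen with earlier results of these data known. All 35 transcripts of the 9 genes had the same position in GENCODE 44. Motifs were matched as letters. The test was run on simulated data with independent normal noise, which lacked the trends with length and GC content seen here. At an adjusted p under 0.05 it recovered 53.7% of 1.5-fold, 77.9% of 2-fold and 99.4% of 4-fold changes. Alternatives were pseudocounts of 1 and 0.01, a filter at 1 FPKM or none, TPM, 2 other scalings and voom. Others were variance moderation without trend or robust fitting and a loess correction (span 0.3) for GC content and length. A block for the replicate number and omission of each library in turn were also used.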

Additional observations from a re-analysis of the deposited data

How the results depend on the processing

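With 2 libraries a group, the calls rest on single libraries. Leaving out 1 library at a time gave from 3 to 1344 genes higher and from 2 to 590 lower at an adjusted p under 0.05 (limma), the most without DMSO replicate 2, against 0 and 0 with all 4; the lone library left in a group is then assumed to vary like the other group. Of the 9 genes, between 0 and 1 were then higher and between 0 and 2 lower, and at an unadjusted p under 0.05 between 0 and 2 were higher. The 3 calls without DMSO replicate 2 were MMP10 (−0.67), MMP15 (−0.47) and TIMP2 (0.38). With a library left out, the log2 fold change ran from −0.82 to −0.67 for MMP10, from −0.47 to −0.35 for MMP15, from 0.31 to 0.40 for TIMP2, from −0.38 to 0.11 for MMP7, from −0.051 to 0.024 for TIMP1 and from −0.26 to 0.14 for KDR. TIMP1 was also positive on TPM (0.053) and after the length and GC correction (0.088), KDR was positive on TPM (0.0082), and RECK was negative with voom (−0.0098). The correction gave 6 genes lower and 0 higher in all, none of them among the 9. Without trend or robust fitting, 2 of the 9 were higher and 3 lower at an unadjusted p under 0.05. TPM moved the median of all genes to 0.10, against 0.036 on FPKM. At a mean of at least 1 FPKM, MMP1, MMP7 and MMP14 were not tested, and 1 gene of the set was higher unadjusted. Deviations from the group means of same-numbered libraries had an r of 0.0133 across genes. With 2 libraries a group, both pairs must give this same value. It cannot tell whether same-numbered libraries were prepared together. With the replicate block, 0 genes were called, 2 of the 9 were higher and 3 lower unadjusted, and the adjusted p of the 9 ran from 0.169 to 0.975. The cause of these changes was not tested. MMP1, MMP10, MMP14, MMP15, PLAU, TIMP2 and TIMP3 kept their direction under every alternative in which they were tested. Low depth limits MMP7, MMP1 and MMP3.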

Other observations

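Proteases outside the plasmin and metalloproteinase systems were also measured. Of 14 cathepsins and cystatins, 3 were higher and 1 lower with etoposide at an unadjusted p under 0.05, against 7.06% and 4.85% of all genes. The median log2 fold change was 0.063. CTSB, the lysosomal cysteine protease cathepsin B, had 69.7 and 67.0 FPKM with etoposide and 86.5 and 98.0 with DMSO (−0.43, SE 0.09, limma adjusted p 0.274). CTSV, cathepsin V, had 19.9 and 21.5 FPKM with etoposide and 15.5 and 17.3 with DMSO (0.34, SE 0.09, limma adjusted p 0.342). In both genes the groups did not overlap on FPKM. On estimated fragments with voom the log2 fold change was −0.26 for CTSB and 0.14 for CTSV (limma adjusted p 0.254 and 0.442).

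Of 12 ADAM and ADAMTS genes tested, 1 was higher and 0 lower at an unadjusted p under 0.05, against 7.06% and 4.85% of all genes. The median was 0.12. ADAMTS9, a proteoglycan-cutting protease, had 1.95 and 1.86 FPKM with etoposide and 0.965 and 1.55 with DMSO (0.59, SE 0.23, limma adjusted p 0.402), and the DMSO libraries differed more than the groups' nearest values did. Its log2 fold change was 0.28 without DMSO replicate 1 and 0.91 without DMSO replicate 2. ADAMTS15 had 6.44 and 6.94 FPKM with etoposide and 7.70 and 7.74 with DMSO (−0.21, SE 0.10, limma adjusted p 0.445). Of 10 membrane serine proteases and inhibitors, the median was −0.073, and 0 were higher and 1 lower, against the same shares of all genes. The lower gene was PRSS8, or prostasin, with 19.8 and 21.2 FPKM with etoposide and 28.4 and 23.7 with DMSO (−0.34, SE 0.11, limma adjusted p 0.373). Its value was −0.21 without DMSO replicate 1 and −0.23 after the length and GC correction. SPINT2, an inhibitor of such enzymes, stood at 634 and 680 FPKM with etoposide and 781 and 716 with DMSO (−0.19, SE 0.08, limma adjusted p 0.426). Of 10 kallikreins, 3 were tested, all under 1 FPKM, and 0 had an unadjusted p under 0.05, against 11.9% of all genes.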
